A study of Mus musculus with 9 samples.

Results

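The comparison described here sets the cerebellum of 84Q mice injected with insulin-like growth factor 1 (IGF-1) against that of 84Q mice without it, and its members were chosen by group label: 3 84Q+IGF-1 and 3 84Q libraries, 6 of the 9 libraries sequenced. All the mice were of the C57BL/6 background and carried a yeast artificial chromosome (YAC) with the human ATXN3 gene, the gene of Machado-Joseph disease, the number in a group's name giving the CAG repeats of its transgene. The 84Q+IGF-1 mice received 50 mg/kg IGF-1 into the peritoneum each week from 9 months of age, and all cerebella were taken at 18 months. The other mice are called untreated in the labels, whereas the methods give them injections of PBS. The 3 15Q libraries, whose mice carry the short repeat, enter the fit and are shown where they help to place a value. No IGF-1-treated 15Q group was analysed here, so the values speak of IGF-1 in the presence of the long repeat alone.

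IGF-1 is made chiefly by the liver under the control of growth hormone (GH), and also by cells of the brain, where it supports neurons and the formation of myelin. It binds the receptor tyrosine kinase IGF1R, which signals through the insulin receptor substrates, PI3K and AKT and through RAS and the MAP kinases. AKT holds the FOXO transcription factors outside the nucleus and raises mTOR activity. Most IGF-1 outside cells is bound to IGF binding proteins. GH acts through its own receptor, JAK2 and STAT5. Much of this signaling runs through phosphorylation, which RNA levels do not measure.

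The counts on genes summed to 28843999, 22808219 and 17482654 in 84Q replicates 1 to 3 and to 23508574, 26914560 and 29089855 in 84Q+IGF-1 replicates 1 to 3, and values below stand in this order of replicates. Levels are given in CPM, the read counts scaled to a common library total with TMM factors. A library with 3 counts or fewer of a gene, where 3 counts equal 0.103 to 0.172 CPM in these 6 libraries, is named as being at the floor, a limit for counting error only, and the size of a fitted fold change that rests on such libraries is uncertain. Xist, which marks a silenced X chromosome, was high in 84Q replicate 1 and 84Q+IGF-1 replicate 2, so that each group held 1 such library of 3. 84Q replicate 2 stood apart by its choroid plexus RNA, and 84Q replicate 3 by its immediate early genes, as the values further on show. Markers of Purkinje cells and granule cells, the defining neurons of the cerebellum, were abundant in every library, with Pcp2 at 149, 163 and 177 CPM in 84Q and 188, 153 and 142 in 84Q+IGF-1 and Gabra6 at 434, 389 and 459 CPM in 84Q and 494, 428 and 396 in 84Q+IGF-1. The mouse gene Atxn3 stood at 28.8, 25.1 and 27.2 CPM in 84Q and 25.7, 28.4 and 26.9 in 84Q+IGF-1, while the human transgene was not analysed here.

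No gene passed the thresholds of an adjusted p under 0.1 and a change of at least 1.5-fold in edgeR's quasi-likelihood F test after Benjamini-Hochberg adjustment, which makes 0.0% of the 19353 genes tested in each direction. The smallest adjusted p was 0.969, so that each gene named below had at least this adjusted p in the fit, where it was tested. At an unadjusted p under 0.05 there were 905 genes (4.68%), of which 355 (1.83%) were fitted higher and 550 (2.84%) lower in 84Q+IGF-1. DESeq2 called 6 of 37794 genes, 1 higher (0.00265%) and 5 lower (0.0132%). A further gene, Ptprf, passed its adjusted p without reaching 1.5-fold. The words higher and lower are therefore used below for fitted values and for the order of the libraries. Every log2 fold change is that of 84Q+IGF-1 over 84Q, so that a negative value marks a lower level after IGF-1. The medians of most lists are given with their lowest and highest values over 8 other fits. Each of 6 leaves out 1 library, 1 takes choroid plexus RNA as a covariate, and 1, the name block, takes the first number of the sample name as a block. The sources used here do not say what that number stands for, and 84Q replicate 2, alone with its number, adds nothing to the group difference under this block.

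The libraries nonetheless bounded the size of a change for most genes. The 95% interval of the fold change lay wholly within 1.5-fold in either direction for 12804 genes (66.2%). This share followed the level of the gene. It was 99.2% of the 2491 genes at 100 CPM or more, 97.1% of the 7850 genes between 10 and 100 CPM, 49.8% of the 5422 genes between 1 and 10 CPM, and 0.195% of the 3590 genes below 1 CPM. The median standard error of the log2 fold change went from 0.0647 in the first class to 0.417 in the last. For a gene of the last class, therefore, a change of 1.5-fold was hardly detectable with these libraries. The 3 libraries of one group lay wholly above those of the other for 767 genes in 84Q+IGF-1 (3.96%) and wholly below for 870 (4.50%), together 8.46% of all genes. A fitted change of 1.5-fold or more was seen upward in 351 genes (1.81%) and downward in 730 (3.77%), and 9423 genes (48.7%) were fitted higher to any extent.

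**Figure D1:**
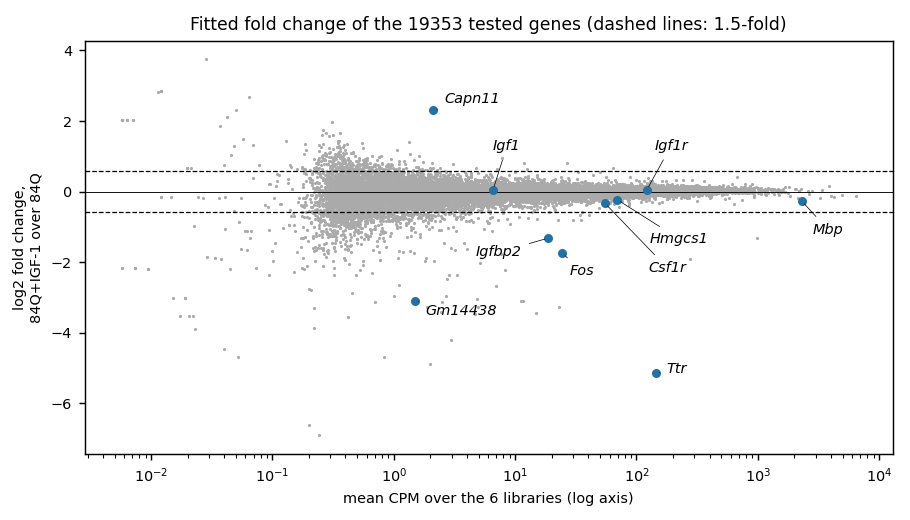
Fitted log2 fold change of 84Q+IGF-1 over 84Q (vertical axis) against the mean CPM of the 6 libraries (horizontal axis, log scale) for the 19353 tested genes, each a grey point, with genes described in the text in blue and dashed lines at 1.5-fold. Of the 2491 genes at 100 CPM or more, 3 were fitted at 1.5-fold or more, against 844 of the 3590 genes below 1 CPM, and none passed the test.

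The ligands, receptors and binding proteins of the IGF system were tested without a call, and their changes were bounded in part. Of 20 listed genes 18 were tested, none was called, and 10 had an interval within 1.5-fold, so that for the other 8 a change of that size was not excluded. The median log2 fold change of the 18 was 0.02 (lowest at −0.01 without 84Q replicate 3, highest at 0.04 without 84Q+IGF-1 replicate 3), beside −0.00 over all tested genes. Igf1, the gene of the injected hormone, had 7.42, 5.85 and 6.10 CPM in 84Q and 6.48, 6.81 and 6.82 in 84Q+IGF-1, and the groups overlapped. Its log2 fold change was 0.05 (95% interval −0.25 to 0.35). The receptor Igf1r had 121, 128 and 110.2 CPM in 84Q and 105, 131 and 136 in 84Q+IGF-1, also overlapping, with a log2 fold change of 0.05 (95% interval −0.15 to 0.25). For Insr, the insulin receptor, it was 0.05 (95% interval −0.14 to 0.23), and for Igf2r, the receptor that takes up and clears IGF-2, 0.06 (95% interval −0.12 to 0.24). For each of these receptors the interval excluded a change of 1.5-fold, and for Igf1 it did so as well. Leaving out single libraries moved these 4 values between −0.05 and 0.17, so that none kept its sign.

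Per length of transcript, Igf1 RNA was the scarcest of these 4 genes, at 2.56 TPM in 84Q and 2.70 in 84Q+IGF-1 (TPM, scaled to transcript length, group means). Igf2r stood at 42.8 TPM in 84Q and 45.4 in 84Q+IGF-1, Igf1r at 27.9 TPM in 84Q and 29.5 in 84Q+IGF-1 and Insr at 21.0 TPM in 84Q and 22.1 in 84Q+IGF-1. Igfbp5, a binding protein of granule cells and other neurons, was the most abundant binding protein per length with 194 TPM in 84Q and 199 in 84Q+IGF-1, and its CPM values of 301, 299.99 and 292 against 310.3, 295 and 295 CPM overlapped closely. Its log2 fold change of 0.01 (95% interval −0.12 to 0.15) was the narrowest bound among the tested genes of the list.

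The study measured Igf1 and Igf1r by quantitative PCR as well, and its primers show which transcripts that assay reads beside the counts here. They are printed 5′ to 3′ in lower case, with no part marked.
Igf1 forward: tgcccaagactcagaagga
Igf1 reverse: tgatgtggcattttctgctc
Igf1r forward: ctgccctgatatgctgtttg
Igf1r reverse: ttgatgctgccgatgatct
In the GENCODE vM21 transcripts, both Igf1 primers matched in 4 of 8 transcripts, giving a product of 112 bases, and both Igf1r primers in 2 of 6, giving 93 bases. The count of a gene sums all its transcripts, so the assay and the counts cover different sets of them.

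**Figure D2:**
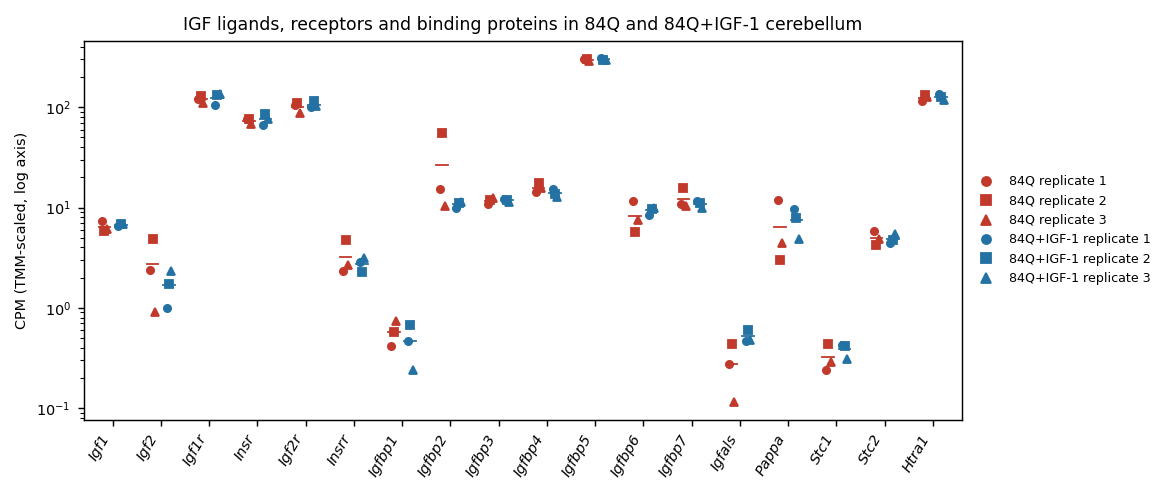
CPM (vertical axis, log scale, TMM-scaled totals) of the 18 tested IGF ligands, receptors and binding proteins in the 3 84Q (red) and 3 84Q+IGF-1 (blue) libraries, with replicates by symbol and the group mean as a line. Igf1, Igf1r, Insr and Igf2r overlap between the groups, Igfals does not, and for Igfbp2 84Q replicate 2 lies far above the other libraries at 54.9 CPM.

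Igfbp2, a binding protein of glia, choroid plexus and meninges, was the only member of the list with an unadjusted p under 0.05. It had 15.2, 54.9 and 10.3 CPM in 84Q and 9.82, 11.1 and 11.4 in 84Q+IGF-1, with a log2 fold change of −1.32 (95% interval −2.52 to −0.11, unadjusted p = 0.0348). A single library, 84Q replicate 2, was high, and the other 84Q libraries lay within or near the range of the treated ones. Without that library the log2 fold change was −0.25. Igf2, the second ligand, which choroid plexus and meninges express, likewise had its highest value there (2.38, 4.84 and 0.912 against 0.987, 1.73 and 2.33 CPM), and its log2 fold change was −0.69 (95% interval −1.73 to 0.35), or −0.02 without that library. Igfals encodes the acid-labile subunit, which holds IGF-1 in the circulating complex. It was the only member whose groups did not overlap, at 0.276, 0.440 and 0.114 CPM in 84Q and 0.472, 0.602 and 0.480 in 84Q+IGF-1, all of them low levels, with 2 counts in 84Q replicate 3, which is at the floor. Its log2 fold change was 0.85 (95% interval −0.18 to 1.88, unadjusted p = 0.0985), or 0.56 without that library. Igfbp4 had 14.4, 17.4 and 15.7 against 15.3, 13.6 and 12.7 CPM, with a log2 fold change of −0.19 (95% interval −0.42 to 0.04). Ins2 and Pappa2 had too few counts to be tested.

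The genes that carry the GH signal gave bounded values too. Of 14 genes of the GH receptor and JAK-STAT list, all tested, 10 had an interval within 1.5-fold, and the median log2 fold change was 0.02 (lowest at −0.01 without 84Q+IGF-1 replicate 2, highest at 0.03 without 84Q replicate 2). The GH receptor Ghr had 4.97, 8.40 and 4.79 CPM in 84Q and 3.73, 5.50 and 6.20 in 84Q+IGF-1, with a log2 fold change of −0.23 (95% interval −0.73 to 0.27), too wide to exclude 1.5-fold, and 0.08 without 84Q replicate 2. Jak2, the kinase bound to it, had 63.1, 57.9 and 57.5 against 56.6, 64.0 and 61.4 CPM, and the groups overlapped. Prlr, the prolactin receptor and a gene of choroid plexus, was the single member with an unadjusted p under 0.05. Its values of 1.03, 12.4 and 0.114 against 0.0429, 0.414 and 0.754 CPM were highest in 84Q replicate 2, and the log2 fold change was −3.41 (95% interval −6.41 to −0.41, unadjusted p = 0.0294), or −0.63 without that library. For Prlr, 84Q replicate 3 and 84Q+IGF-1 replicate 1 were at the floor. Gh itself, a pituitary gene, stood at 3.59, 0.132 and 0 CPM in 84Q and 0.386, 0 and 0.103 in 84Q+IGF-1, with 1 library above the rest, 84Q replicate 1, which also held Prl at 4.80 CPM. Its log2 fold change was −3.12, but 1.02 without that library, so that it turned direction, and in each group a pair of libraries was at the floor.

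Among the insulin receptor substrates, PI3K, AKT and mTOR genes, 29 of 30 tested members had an interval within 1.5-fold, with a median log2 fold change of 0.03 (lowest at −0.01 without 84Q+IGF-1 replicate 2, highest at 0.03 without 84Q+IGF-1 replicate 3). One member had an unadjusted p under 0.05, beside 4.68% of all genes. Akt1 had 149, 150.2 and 155 against 164, 144 and 139.7 CPM and Pik3r1, the regulatory subunit of PI3K, 171, 149 and 138 against 146, 173 and 159.6 CPM, with overlapping groups for both. The FOXO factors and genes that they are known to induce had 14 of 17 tested members within 1.5-fold and a median of 0.02 (lowest at −0.01 without 84Q+IGF-1 replicate 2, highest at 0.03 with the choroid plexus covariate). In this list Cat, which encodes catalase and breaks down hydrogen peroxide, had 55.2, 50.1 and 49.9 CPM in 84Q and 44.2, 46.2 and 45.4 in 84Q+IGF-1. The treated libraries all lay below the untreated ones, and the log2 fold change was −0.19 (95% interval −0.32 to −0.07, unadjusted p = 0.00577). Foxo3 itself had 295, 294 and 303 against 308, 389 and 302 CPM, with a log2 fold change of 0.16 (95% interval −0.03 to 0.35) and its highest value in 84Q+IGF-1 replicate 2, without which the log2 fold change was 0.03.

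The RAS and MAP kinase list had 17 of 19 tested members within 1.5-fold, with a median log2 fold change of 0.03 (lowest at −0.02 without 84Q+IGF-1 replicate 2, highest at 0.06 without 84Q replicate 3). Mapk3, the gene of ERK1, had 112, 115 and 109 CPM in 84Q and 104, 104 and 101 in 84Q+IGF-1, without overlap, and a log2 fold change of −0.12 (95% interval −0.22 to −0.02, unadjusted p = 0.0239). Sos2, a RAS exchange factor, had an unadjusted p = 0.0465 in the other direction, with a log2 fold change of 0.13 (95% interval 0.00 to 0.25). All 17 genes of AMPK, CREB and mitochondrial biogenesis lay within 1.5-fold, with a median of 0.01 (lowest at −0.03 without 84Q+IGF-1 replicate 1, highest at 0.05 without 84Q replicate 2) and no unadjusted p under 0.05. Creb1, the cAMP-responsive factor and a gene of the study's PCR, had 82.6, 76.0 and 77.2 against 77.7, 91.7 and 90.2 CPM, with a log2 fold change of 0.14 (95% interval −0.02 to 0.30, unadjusted p = 0.0841). Across these 5 signaling lists, no member was called. Over the 8 other fits, 0 to 4 members of such a list were higher at an unadjusted p under 0.05 and 0 to 2 lower, the most being 4 higher in the RAS list without 84Q+IGF-1 replicate 1.

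Energy metabolism, another subject of the study, gave close bounds. All 75 nuclear genes of oxidative phosphorylation, all 19 of glycolysis and glucose uptake and all 16 of the citric acid cycle had intervals within 1.5-fold. Their median log2 fold changes were −0.04 (lowest at −0.08 without 84Q+IGF-1 replicate 1, highest at 0.00 without 84Q replicate 3), −0.03 (lowest at −0.06 with the choroid plexus covariate, highest at 0.00 without 84Q replicate 3) and −0.02 (lowest at −0.04 without 84Q+IGF-1 replicate 1, highest at −0.00 without 84Q+IGF-1 replicate 2). Of the oxidative phosphorylation genes 56 of 75 were fitted lower, and 1, Ndufa11 of complex I, had an unadjusted p under 0.05, at 12.3, 11.6 and 12.5 against 10.1, 9.98 and 11.2 CPM (log2 fold change −0.22, 95% interval −0.43 to −0.00). The count of lower genes ran from 35 without 84Q replicate 3 and 39 without 84Q+IGF-1 replicate 2 to 66 without 84Q+IGF-1 replicate 1, 69 without 84Q replicate 2 and 71 under the name block, and it was 67 with the choroid plexus covariate. Leaving out 84Q+IGF-1 replicate 1 gave 5 lower genes at an unadjusted p under 0.05. In that fit, 1183 of all 19943 tested genes had such a p in either direction. The 13 genes encoded by the mitochondrial genome were not among the counts used here. In fatty acid oxidation 16 of 17 genes lay within 1.5-fold and 3 were lower at an unadjusted p under 0.05, beside 2.84% of all genes. That count was 1 without 84Q replicate 1, without 84Q replicate 2 or without 84Q+IGF-1 replicate 1, and also in a fit of the 6 libraries alone. It was 0 without 84Q+IGF-1 replicate 3 or under the name block. Cpt1a, which moves fatty acids into mitochondria, was one of the genes lower at that p. It had 47.0, 50.0 and 44.2 CPM in 84Q and 39.5, 44.4 and 42.2 in 84Q+IGF-1, overlapping by 1 library, and a log2 fold change of −0.16 (95% interval −0.31 to −0.02, unadjusted p = 0.0300).

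**Figure D3:**
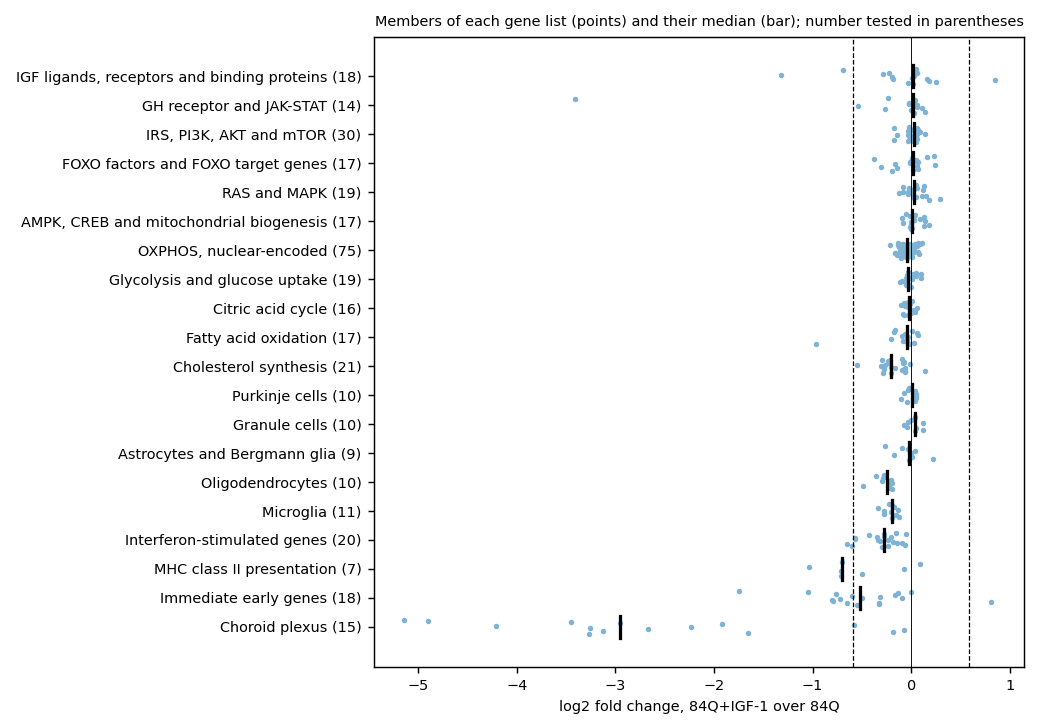
Fitted log2 fold change of 84Q+IGF-1 over 84Q (horizontal axis) for the tested members of each gene list (blue points, number tested in parentheses) with the list median as a black bar and dashed lines at 1.5-fold. Signaling and metabolic lists stand near 0, cholesterol synthesis at −0.20 and oligodendrocytes at −0.25 stand to the left, and the choroid plexus median of −2.95 becomes 0.16 without 84Q replicate 2.

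Cholesterol synthesis, the path from acetyl-CoA to the sterols of membranes and myelin, was the metabolic list with the lowest median. Of its 21 genes, all tested, 20 were fitted lower in 84Q+IGF-1 and 8 had an unadjusted p under 0.05, all lower, beside 2.84% of all genes. The treated libraries lay wholly below the untreated ones for 6 genes, beside 4.50% of all genes. The median log2 fold change was −0.20, and 20 of the 21 intervals lay within 1.5-fold. None was called. Hmgcs1, which makes the HMG-CoA that the path starts from, had 70.4, 79.95 and 75.1 CPM in 84Q and 62.5, 60.3 and 69.3 in 84Q+IGF-1, and its log2 fold change was −0.23 (95% interval −0.37 to −0.09, unadjusted p = 0.00434). Idi1, which forms the second isoprenoid unit, had 35.4, 35.8 and 37.1 CPM in 84Q and 31.2, 27.7 and 31.1 in 84Q+IGF-1, and its log2 fold change was −0.27 (95% interval −0.43 to −0.10, unadjusted p = 0.00474). Both were without overlap between the groups.

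Further along the path, Fdft1, the squalene synthase, had 28.3, 33.0 and 26.4 against 23.7, 22.3 and 24.8 CPM, with a log2 fold change of −0.31 (95% interval −0.51 to −0.11), and again the groups did not overlap. Msmo1 (−0.28) and Dhcr7 (−0.21) in the sterol part of the path and Insig1 (−0.21), the sterol sensor of the endoplasmic reticulum, were also among the members with an unadjusted p under 0.05, and for Msmo1 and Dhcr7 the groups did not overlap. The summed CPM of the list was 859, 983 and 901 in 84Q and 819.6, 791 and 856 in 84Q+IGF-1, without overlap, and 960.5, 933 and 942 in 15Q. 84Q replicate 2 had the highest sum. Without it the median was −0.11, with 17 of 21 genes lower and 5 at an unadjusted p under 0.05, and with choroid plexus RNA as a covariate the median was −0.12. Without 84Q+IGF-1 replicate 1 it was −0.12, and under the name block −0.10, with 17 of 21 lower and 3 at an unadjusted p under 0.05. Oligodendrocyte markers, described next, were also lower, and their part in the values of this list was not tested.

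Sterol genes are known to be driven by SREBP2 together with NF-Y, which binds the CCAAT box, and the promoters of members with low p-values are shown for that reason. The 250 bases before the start are printed 5′ to 3′ on the strand of the gene, from RefSeq on GRCm38.p6, for Hmgcs1 (chr13:119690101-119690350, plus strand), Idi1 (chr13:8885356-8885605, plus strand) and Msmo1 (chr8:64733579-64733828, minus strand). Capitals mark CCAAT or its complement ATTGG and the sterol element TCACNCCAC.
Hmgcs1: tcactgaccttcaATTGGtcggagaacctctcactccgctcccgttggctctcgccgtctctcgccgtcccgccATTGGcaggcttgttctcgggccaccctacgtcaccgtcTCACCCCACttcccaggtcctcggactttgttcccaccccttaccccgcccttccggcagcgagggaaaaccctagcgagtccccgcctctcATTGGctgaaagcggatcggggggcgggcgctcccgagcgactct
Idi1: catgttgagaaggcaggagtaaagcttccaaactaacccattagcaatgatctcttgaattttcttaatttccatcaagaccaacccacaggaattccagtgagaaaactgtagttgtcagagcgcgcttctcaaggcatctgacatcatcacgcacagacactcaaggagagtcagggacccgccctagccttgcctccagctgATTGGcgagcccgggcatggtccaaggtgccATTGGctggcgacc
Msmo1: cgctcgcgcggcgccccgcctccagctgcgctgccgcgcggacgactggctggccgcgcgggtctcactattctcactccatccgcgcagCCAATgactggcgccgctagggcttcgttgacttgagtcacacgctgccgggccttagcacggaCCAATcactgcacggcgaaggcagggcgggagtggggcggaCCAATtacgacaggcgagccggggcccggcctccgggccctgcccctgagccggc
The set of RefSeq promoters used here held 15 of the 21 genes, each counted from 250 bases before to 50 after the start. The other genes were not searched. CCAAT was present on either strand in 15 of these 15, beside 41.1% of the 27025 genes with a promoter. TCACNCCAC was present in 1 of 15, that of Hmgcs1, beside 1.44%. The search spelled each motif exactly on both strands, and a match describes letters only. Nfya, the gene of an NF-Y subunit, had 28.0, 27.2 and 26.6 CPM in 84Q and 32.6, 32.3 and 32.6 in 84Q+IGF-1, higher in every treated library, with a log2 fold change of 0.25 (95% interval 0.11 to 0.39, unadjusted p = 0.00234).

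Oligodendrocytes wrap axons in myelin, for which they make much cholesterol. All 10 of their marker genes were fitted lower in 84Q+IGF-1, 8 at an unadjusted p under 0.05 beside 2.84% of all genes, and for 4 the treated libraries lay wholly below, beside 4.50%. The median log2 fold change was −0.25, none was called, and 9 of the 10 intervals lay within 1.5-fold. In bulk tissue, fewer cells of a type and less RNA per cell cannot be told apart. Mbp, the myelin basic protein, had 2937, 2386 and 2265 CPM in 84Q and 1772, 2198 and 2306 in 84Q+IGF-1, overlapping in the third treated library, with a log2 fold change of −0.27 (95% interval −0.51 to −0.04). For Mag, which binds myelin to the axon, the values were 202, 164 and 169.6 against 119, 161 and 157 CPM, every treated library being below the lowest untreated one, and the log2 fold change −0.29 (95% interval −0.53 to −0.06).

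The other members went from −0.19 for Cnp, an enzyme of the myelin sheath, to −0.48 for Opalin, with Mog at −0.29, Cldn11 at −0.22 and Mal at −0.21. The summed CPM of the 10 markers was 5182, 4220.2 and 4129.7 in 84Q, 3158, 3910.3 and 4148 in 84Q+IGF-1 and 4373, 4202 and 4524 in 15Q. A high library, 84Q replicate 1, and a low one, 84Q+IGF-1 replicate 1, stood at the ends of the range. Without 84Q replicate 1 the log2 fold change of Mbp was −0.15, that of Opalin −0.19 and that of Mog −0.14. Without this library the median was −0.15 and 2 members had an unadjusted p under 0.05, and without 84Q+IGF-1 replicate 1 these were −0.16 and 1. A pair of the non-overlapping genes with the smallest p-values encode enzymes of myelin lipids. Fa2h, which hydroxylates the fatty acids of myelin, had 43.6, 46.7 and 40.1 CPM in 84Q and 33.4, 32.8 and 36.8 in 84Q+IGF-1, with a log2 fold change of −0.34 (95% interval −0.51 to −0.17). Gal3st1, the sulfatide sulfotransferase, had 7.45, 6.86 and 6.95 against 4.29, 5.38 and 4.76 CPM and −0.56 (95% interval −0.84 to −0.28). In both genes the groups did not overlap. Oligodendrocyte precursors had a median of −0.14 over 5 genes, with Gpr17, a receptor of cells about to mature, at 11.6, 12.6 and 9.06 against 7.55, 7.68 and 9.87 CPM (log2 fold change −0.41, 95% interval −0.77 to −0.05). This median was lowest at −0.29 without 84Q replicate 3, highest at −0.01 without 84Q replicate 2, and −0.04 without 84Q replicate 1, −0.02 under the name block and −0.06 with the choroid plexus covariate.

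**Figure D4:**
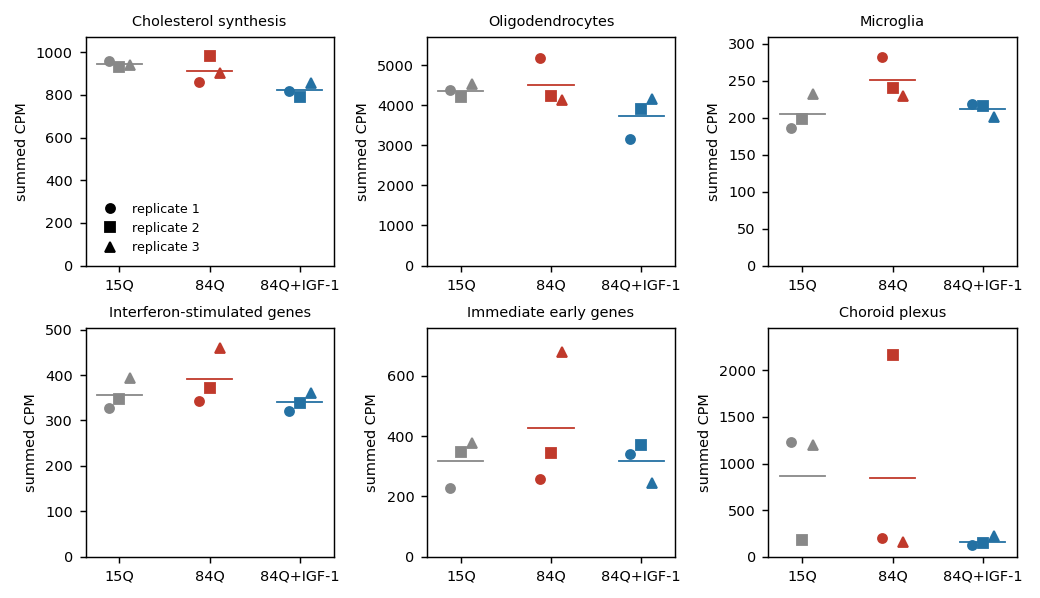
Summed CPM (vertical axes from 0) of 6 gene lists in each library of 15Q (grey), 84Q (red) and 84Q+IGF-1 (blue), with replicates by symbol and group means as lines. Cholesterol synthesis is lower in all treated than in all 84Q libraries, 84Q replicate 1 leads the oligodendrocyte sum, 84Q replicate 3 the immediate early genes at 679 CPM, and 84Q replicate 2 the choroid plexus at 2169.7 CPM.

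Microglia, the resident macrophages of the brain, showed the same direction. All 11 markers were fitted lower, 2 at an unadjusted p under 0.05 beside 2.84% of all genes, with a median log2 fold change of −0.20 (−0.14 without 84Q replicate 1, with 7 of 11 lower). The count of 2 went from 1 to 4 with single libraries left out. Csf1r, the receptor on which microglia depend, had 66.0, 64.0 and 54.2 CPM in 84Q and 49.6, 48.9 and 47.8 in 84Q+IGF-1, without overlap, and a log2 fold change of −0.33 (95% interval −0.49 to −0.17, unadjusted p = 0.000664). The summed CPM of the markers was 282, 239.7 and 229.8 against 218, 216 and 201, again without overlap.

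Of 7 tested MHC class II genes, which present antigen on microglia and other immune cells, 6 were fitted lower, 3 of them at an unadjusted p under 0.05 beside 2.84% of all genes, and there was a median log2 fold change of −0.70. H2-DMa, which loads peptides, had 4.73, 4.97 and 5.70 CPM in 84Q and 4.16, 3.50 and 3.19 in 84Q+IGF-1, with a log2 fold change of −0.50 (95% interval −0.82 to −0.19, unadjusted p = 0.00478), with no overlap. Cd74, the invariant chain, had 5.45, 4.53 and 3.14 against 2.19, 3.16 and 2.81 CPM, with a log2 fold change of −0.70 (95% interval −1.39 to −0.00). H2-Aa had 2.17, 1.19 and 0.855 against 0.558, 0.866 and 0.685 CPM and −1.03 (95% interval −2.03 to −0.04). The count of members at an unadjusted p under 0.05 was 1 without 84Q replicate 1, without 84Q+IGF-1 replicate 1, without 84Q+IGF-1 replicate 3, under the name block, with the choroid plexus covariate or in the fit blocked on replicate number, and it was 4 without 84Q replicate 3. The median was lowest at −0.87 without 84Q replicate 3, highest at −0.50 without 84Q replicate 1, and the log2 fold change of H2-Aa was −0.55 without 84Q replicate 1. The 9 class I genes had a median of −0.08 (lowest at −0.21 under the name block, highest at −0.01 without 84Q replicate 1), with 7 lower and none at an unadjusted p under 0.05. Without 84Q replicate 2, 2 members had such a p and the median was −0.14, and under the name block 1 had one, with 8 of 9 lower.

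All 20 interferon-stimulated genes were fitted lower, with a median log2 fold change of −0.27, and 3 had an unadjusted p under 0.05, beside 2.84% of all genes. These were Ifitm3, which blocks the entry of viruses into cells, at 5.55, 5.41 and 7.75 CPM in 84Q and 3.77, 4.56 and 4.21 in 84Q+IGF-1 (log2 fold change −0.57, 95% interval −0.95 to −0.18), Bst2, which tethers budding virus, at 3.83, 5.19 and 5.30 against 2.27, 3.69 and 3.08 CPM (−0.65, 95% interval −1.11 to −0.18), and Rtp4 at 3.42, 4.53 and 5.76 against 2.79, 3.43 and 2.74 CPM (−0.60, 95% interval −1.04 to −0.16). The count of 3 became 6 without 84Q replicate 1 or 84Q+IGF-1 replicate 3 and 2 without 84Q replicate 3. The list rested in part on 1 library. Its summed CPM was 343, 371 and 459 in 84Q and 321, 339 and 361 in 84Q+IGF-1, and without 84Q replicate 3, the highest, 12 of 20 members were lower and the median was −0.06. It was −0.10 without 84Q+IGF-1 replicate 1 and −0.42 without 84Q+IGF-1 replicate 3, and under the name block it was −0.50, with 10 members at an unadjusted p under 0.05.

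Immediate early genes, which neurons switch on within minutes of firing, were led by a single library. Fos had 3.79, 22.0 and 88.0 CPM in 84Q and 12.2, 16.4 and 4.87 in 84Q+IGF-1, and 84Q replicate 3 stood above all the others. Of the 18 genes 17 were fitted lower, with a median log2 fold change of −0.52. Without 84Q replicate 3, 7 of 18 were lower and the median was 0.05.

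Neurons and the other glia gave narrow values. All 10 Purkinje cell, all 10 granule cell and all 9 interneuron and Golgi cell markers had intervals within 1.5-fold, with median log2 fold changes of 0.01 (lowest at −0.05 without 84Q+IGF-1 replicate 1, highest at 0.06 without 84Q+IGF-1 replicate 3), 0.04 (lowest at −0.05 without 84Q+IGF-1 replicate 1, highest at 0.08 without 84Q+IGF-1 replicate 3) and 0.04 (lowest at 0.01 without 84Q+IGF-1 replicate 3, highest at 0.10 without 84Q+IGF-1 replicate 2). Leaving out 84Q+IGF-1 replicate 1 put 8 of 10 Purkinje cell and 7 of 10 granule cell markers lower, and leaving out 84Q+IGF-1 replicate 3 put all 10 granule cell markers higher. Of these 29 genes, Tfap2b, a transcription factor of interneurons, alone had an unadjusted p under 0.05. Of the interneuron and Golgi cell markers, 3 were higher at that p without 84Q replicate 2 or with the choroid plexus covariate, and without 84Q replicate 1 0 were higher and 1 lower. Tfap2b had 66.4, 71.1 and 73.9 CPM in 84Q and 81.8, 77.8 and 83.6 in 84Q+IGF-1, all treated libraries above the untreated ones, with a log2 fold change of 0.20 (95% interval 0.05 to 0.36, unadjusted p = 0.0140). Of the 9 astrocyte and Bergmann glia markers 7 lay within 1.5-fold, with a median of −0.02 (lowest at −0.07 without 84Q+IGF-1 replicate 3, highest at 0.01 without 84Q+IGF-1 replicate 1), and all 9 of brain endothelium did, with a median of −0.05 (lowest at −0.13 without 84Q+IGF-1 replicate 3, highest at −0.03 with the choroid plexus covariate).

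Choroid plexus, the tissue that secretes cerebrospinal fluid and lies against the cerebellum in the fourth ventricle, gave large fitted differences. The summed CPM of its 15 markers was 199.7, 2169.7 and 156 in 84Q, 125, 144 and 220.5 in 84Q+IGF-1 and 1227, 179 and 1195 in 15Q. One 84Q library and a pair of 15Q libraries were thus high, and the rest low. Ttr, the transthyretin of cerebrospinal fluid, had 8.66, 832 and 0.855 CPM in 84Q and 1.33, 1.84 and 19.8 in 84Q+IGF-1. All 15 genes were fitted lower, 11 at an unadjusted p under 0.05 beside 2.84% of all genes, with a median log2 fold change of −2.95, although no gene of the list was free of overlap. Without 84Q replicate 2, 5 of 15 were lower, the median was 0.16 and 0 had an unadjusted p under 0.05. That count was 1 without 84Q+IGF-1 replicate 1, 2 without 84Q+IGF-1 replicate 2 and 13 without 84Q replicate 3. The log2 fold changes of Ttr, of the folate receptor gene Folr1 and of Kl, which encodes klotho, went from −5.15, −4.90 and −3.44 to 0.57, 1.48 and 0.21. For Folr1, 84Q replicates 1 and 3 and 84Q+IGF-1 replicates 1 and 2 were at the floor. Enpp2, the enzyme autotaxin, which oligodendrocytes make too, had 151, 1041 and 122 against 92.6, 109 and 145 CPM, with a log2 fold change of −1.92 (95% interval −3.57 to −0.28), or −0.24 without 84Q replicate 2.

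The genes the study placed in its canonical pathways and biomarkers for this comparison were chosen on these same libraries and are no independent evidence of a direction. Of 47 tested, 43 were fitted lower, with a median log2 fold change of −0.71, 16 were lower and 1 higher at an unadjusted p under 0.05, beside 2.84% and 1.83% of all genes, and none was called. Of all genes, 48.7% were fitted higher. With the choroid plexus score as a covariate, 40 were lower, the median was −0.52 and 8 were lower at that p. In the fit with no covariate, leaving out single libraries moved the count of 16 lower genes to between 5, without 84Q+IGF-1 replicate 1, and 26, without 84Q replicate 3. Klk6, a protease of oligodendrocytes, was one of those without overlap, at 9.18, 8.35 and 11.2 CPM in 84Q and 5.36, 6.89 and 6.58 in 84Q+IGF-1, with a log2 fold change of −0.60 (95% interval −0.94 to −0.27, unadjusted p = 0.00209). Lbp, which binds bacterial lipopolysaccharide, had 1.62, 10.8 and 1.54 against 0.472, 0.941 and 1.06 CPM and −2.47 (95% interval −4.03 to −0.90, unadjusted p = 0.00499), and −0.91 without 84Q replicate 2. Mst1, the gene of a hepatocyte growth factor-like protein, was the member that was higher, at 0.345, 0.440 and 0.456 against 1.12, 0.527 and 0.754 CPM (0.95, 95% interval 0.01 to 1.89, unadjusted p = 0.0481).

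Fap encodes a peptidase of activated fibroblasts and was 1 of the 11 genes of the study's PCR, of which 9 had an interval within 1.5-fold. It was the only one of the 11 with an unadjusted p under 0.05. None had one without 84Q replicate 2, without 84Q+IGF-1 replicate 2, with the choroid plexus covariate or under the name block. Fap had 0.793, 1.71 and 0.741 CPM in 84Q and 0.686, 0.339 and 0.480 in 84Q+IGF-1, and its log2 fold change was −1.12 (95% interval −1.99 to −0.25, unadjusted p = 0.0157), with the treated libraries below the untreated ones at levels under 2 CPM. Without 84Q replicate 2 the log2 fold change was −0.63. Its primers are printed 5′ to 3′ with no part marked.
Fap forward: caaatgtggcatagcagtgg
Fap reverse: ggcccatgaatctctctgagt
Both matched in 5 of 9 transcripts of the gene, with a product of 77 bases.

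Among the genes that DESeq2 called lower were Gm14414 and Gm14438, processed pseudogenes on chromosome 2, whose copies of coding sequence carry no introns. Gm14414 (chr2:177460275-177460847, plus strand, GRCm38) had 102, 7 and 69 counts in 84Q and 6, 6 and 7 in 84Q+IGF-1. Gm14438 (chr2:175270556-175271179, plus strand) had 105, 7 and 71 counts in 84Q and 9, 7 and 8 in 84Q+IGF-1. In both, 84Q replicates 1 and 3 were high, whereas 84Q replicate 2 lay at the level of the treated libraries. The 15Q libraries, at 4, 10 and 12 counts for Gm14414 and 7, 13 and 20 for Gm14438, were low as well. Of these, 15Q replicates 2 and 3 were deeper than all 6 libraries of the comparison, whereas 15Q replicate 1 was not. DESeq2 gave adjusted p-values of 0.0124 and 0.0178. Gm14414 had too few counts for the edgeR fit, while Gm14438 entered it, with a log2 fold change of −3.10 (95% interval −4.62 to −1.58, unadjusted p = 0.000833). Every word of 31 bases in the transcript of Gm14414 occurs in that of Gm14438, as do 91.4% of the words of Gm14438 in Gm14414. Reads that lie wholly within shared stretches cannot be told apart, and the counts of both genes are uncertain for this reason.

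Other pseudogenes and near copies divided the 84Q libraries in the same way. They were named after their values were seen. Eno1b, a near copy of the glycolytic enzyme gene Eno1, had 47.1, 27.4 and 51.8 CPM in 84Q and 29.0, 24.7 and 26.0 in 84Q+IGF-1, with 84Q replicates 1 and 3 high and a log2 fold change of −0.66 (95% interval −1.07 to −0.26). Eno1 had 515, 509.6 and 557 against 549, 487 and 502 CPM. Gm20075 had 20.7, 10.4 and 18.7 against 10.8, 11.3 and 11.1 CPM, with the same 2 libraries high. Rpl3-ps1, a pseudogene of the ribosomal protein gene Rpl3, went the other way, at 12.8, 31.2 and 13.8 CPM in 84Q and 36.4, 30.5 and 35.4 in 84Q+IGF-1, and Rpl3-ps2 with it at 3.17, 9.49 and 3.19 against 10.5, 8.73 and 11.5 CPM. In these pseudogenes 84Q replicates 1 and 3 were low, and 84Q replicate 2 was again with the treated libraries. The 15Q libraries, at 12.8, 13.0 and 12.2 CPM for Rpl3-ps1, stood at the low level. The log2 fold changes of Rpl3-ps1 and Rpl3-ps2 were 0.82 (95% interval 0.26 to 1.39) and 0.95 (95% interval 0.23 to 1.68). Leaving out single libraries moved them between 0.59 and 1.36 for Rpl3-ps1 and between 0.67 and 1.69 for Rpl3-ps2. Rpl3 had 201, 179 and 228 against 193, 172 and 198 CPM. Without 84Q replicate 2, edgeR's test called 9 genes, Rpl3-ps1 and Rpl3-ps2 higher and 7 lower, among them Eno1b, Gm20075, Gm14414 and Gm14438. Of the 9, 4 had too few counts to enter the fit of all libraries. The library left out was the one that stood with the treated ones, so these calls are no independent evidence of a difference. The part that the assignment of reads between near-identical copies has in these values was not tested.

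**Figure D5:**
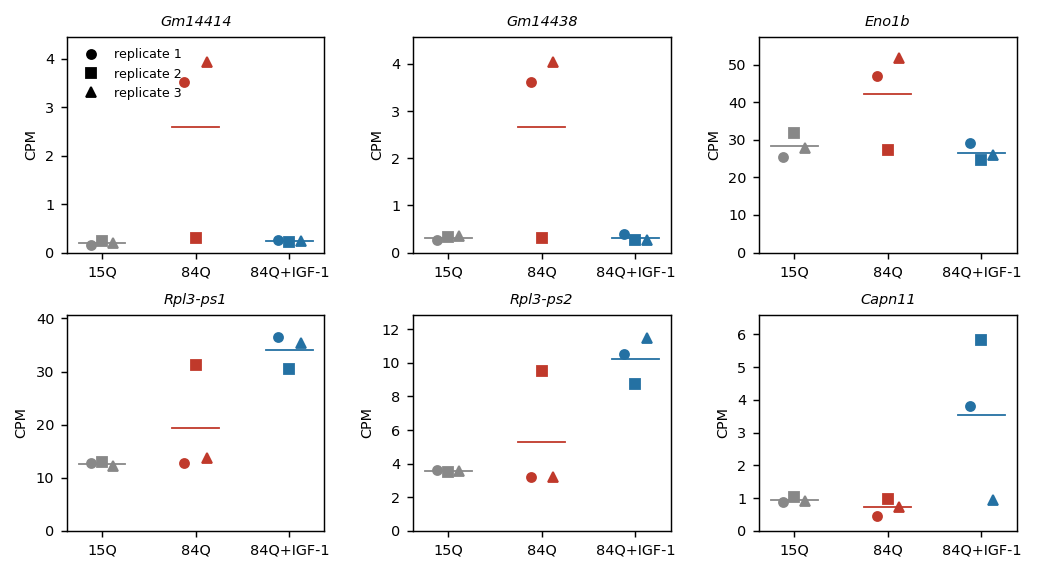
CPM (vertical axes from 0) in each library of 15Q (grey), 84Q (red) and 84Q+IGF-1 (blue) for Gm14414, Gm14438, Eno1b, Rpl3-ps1, Rpl3-ps2 and Capn11, with replicates by symbol and group means as lines. 84Q replicates 1 and 3 are above all the other libraries in Gm14414, Gm14438 and Eno1b and lie at the low level of 15Q in Rpl3-ps1 and Rpl3-ps2, and 84Q+IGF-1 replicates 1 and 2 are above all the others in Capn11.

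Capn11, a calpain protease best known from testis, was the gene DESeq2 called higher, and in edgeR's fit its log2 fold change was 2.31 (95% interval 1.12 to 3.50, unadjusted p = 0.00123). It stood at 0.448, 0.967 and 0.741 CPM in 84Q and 3.82, 5.84 and 0.925 in 84Q+IGF-1. The first and second treated libraries were above every other library, and the third lay within the 84Q range. The 15Q libraries had 24, 41 and 54 counts, out of library totals of 26925001, 40249019 and 58269196. These are raw counts and are not on the scale of the CPM values. The gene lies at chr17:45630204-45659325 on the minus strand of GRCm38. Without 84Q+IGF-1 replicate 3 its adjusted p was 0.0394 in edgeR's quasi-likelihood F test after Benjamini-Hochberg adjustment, and it was then the 1 gene called. The library left out was the one within the 84Q range, so this call is no independent evidence of a difference. Tmem63b (115, 127 and 117 against 119.5, 115 and 107 CPM) and Slc29a1 (41.2, 48.4 and 42.6 against 48.6, 43.8 and 43.8 CPM), the genes on either side of it, looked at after the values of Capn11 were seen, did not share its order of libraries. The 12 tested genes of calpains and calpastatin, Capn11 among them, had a median log2 fold change of −0.01 (lowest at −0.03 without 84Q replicate 3, highest at 0.04 under the name block).

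Among all genes without overlap between the groups, those with the smallest p-values that were lower in 84Q+IGF-1 began with Tmem182. This gene of muscle and fat tissue had 15, 12 and 10 counts in 84Q and 3, 2 and 3 in 84Q+IGF-1, with a log2 fold change of −2.36 (95% interval −3.29 to −1.43, unadjusted p = 0.000140) on few counts, every treated library being at the floor, so that the size is uncertain. Ptprf, a receptor phosphatase that acts on the insulin receptor among others, had 57.5, 59.998 and 52.2 CPM in 84Q and 35.8, 43.0 and 44.6 in 84Q+IGF-1, and its log2 fold change was −0.46 (95% interval −0.65 to −0.27, unadjusted p = 0.000183). It passed DESeq2's test with an adjusted p = 0.0124 and fell short of 1.5-fold. Car2, a carbonic anhydrase of oligodendrocytes, had 119.7, 118 and 123 CPM in 84Q and 99.9, 97.2 and 99.2 in 84Q+IGF-1, values that hardly varied within a group, and a log2 fold change of −0.28 (95% interval −0.41 to −0.15, unadjusted p = 0.000530). Csf1r, Fa2h and Gal3st1, given above, were among these 12 genes as well. The others were the nicotinic receptor subunit Chrna4 (−0.71), Rimkla, which makes N-acetylaspartylglutamate (−0.33), the myelin protein Pmp22 (−0.30), the growth factor gene Pdgfb (−0.34), Gm36855 (−0.75) and 2810468N07Rik (−0.46), whose values are log2 fold changes. 2810468N07Rik is annotated as antisense, and since the strand setting of the counting is not given in the sources used here, its reads and those of the opposite strand may not be separate.

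Among the 12 that were higher, Zfp933, a zinc finger gene, had the smallest p. It had 19.4, 22.0 and 19.5 CPM in 84Q and 26.0, 30.2 and 24.9 in 84Q+IGF-1, with a log2 fold change of 0.42 (95% interval 0.21 to 0.62, unadjusted p = 0.000896). Of loci known by an identifier alone, the log2 fold changes were 1.01 for Gm14393, 0.33 for Gm14418, 1.67 for Gm14858, 1.57 for Gm42690, 0.20 for 2610005L07Rik and 0.70 for C130046K22Rik. Of these, 84Q replicates 2 and 3 were at the floor for Gm14858 and 84Q replicates 1 and 3 for Gm42690. Pdcd7, a part of the minor spliceosome, had 15.1, 13.9 and 14.3 against 18.4, 17.7 and 18.3 CPM, with a log2 fold change of 0.33 (95% interval 0.14 to 0.51). Hivep1, a zinc finger factor, had 106, 96.2 and 93.1 against 115, 112 and 113 CPM and 0.21 (95% interval 0.08 to 0.33). Mtcl1, which crosslinks microtubules in Purkinje cells, had 534, 584 and 589 against 651, 681 and 657 CPM and 0.22 (95% interval 0.09 to 0.35). Tmc1, the channel of hair cells, stood at 0.0690, 0.132 and 0.171 against 0.257, 0.414 and 0.514 CPM, every 84Q library being at the floor, with 1.75 (95% interval 0.65 to 2.84), a size that is uncertain. Nfya, described with the sterol genes, completes the 12.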

How the data were processed

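Cerebellar RNA of 9 mice, 3 per group, was sequenced in pairs with a strand-specific kit. The authors trimmed reads with Trimmomatic 0.36, aligned them to GRCm38.p6 with HISAT2 2.2.0, counted them with featureCounts and deposited raw counts per gene for 37816 genes. The annotation and strand setting of the counting are not given in the sources used here. Positions and transcripts come from GENCODE vM21, in which 37681 genes had an entry. No label ties libraries to litters, and p-values measure the spread between these mice.

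The counts of all 9 libraries were fitted with edgeR 4.0.16 in R 4.3.3 (TMM normalization, filterByExpr, quasi-likelihood test, Benjamini-Hochberg adjustment over 19353 genes, two-sided), for the contrast of 84Q+IGF-1 with 84Q. Calls required an adjusted p under 0.1 together with 1.5-fold. Intervals used the standard error from the F statistic. TPM used exon lengths. The spread within groups exceeded sampling noise. DESeq2 1.42.0 and the other alternatives are given in the closing section. The steps were tested on simulated data.

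The members, the gene lists and the rule for names were chosen with earlier results of these data known. The rule took the genes the study names for this comparison, its PCR, pathway and biomarker genes, all IGF list members, for each other list the 4 tested members with the highest CPM and up to 3 with the smallest p, the 12 non-overlapping genes with the smallest p in each direction, DESeq2 calls and reference genes. Fdft1, Msmo1, Dhcr7, Mog, Cldn11, Opalin, Mal, Rpl3-ps1, Rpl3-ps2, Rpl3, Eno1b, Eno1, Gm20075, Slc29a1 and Tmem63b were named after their values were seen. The reads, PCR values and flux models were not analysed here, and some genes within the rule are not reported here.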

Additional observations from a re-analysis of the deposited data

How the results depend on the processing

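The count of genes called was 0 in edgeR with an adjusted p under 0.05, no fold change threshold, at least 10 counts in each of the 6 libraries, DESeq2 size factors, robust shrinkage, the 6 libraries alone, Xist as a covariate and choroid plexus RNA as a covariate. It was 6 with DESeq2 and 7 with DESeq2 without a fold change threshold, an alternative chosen after the data were seen. Without a filter on low counts it was 168, of which 154 were lower. There the shrinkage left a median of 226896 degrees of freedom per gene, against 11.7 with the filter. Leaving out single libraries gave between 0 and 9 calls, with 9 without 84Q replicate 2 and 1 without 84Q+IGF-1 replicate 3, and 0 in the other 7 cases. Leaving out a library also lowers the number of samples, and the cause of these differences was not tested. The number of intervals within 1.5-fold went from 11496 to 13143.

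With the replicate number as a block, 0 genes were called and 668 had an unadjusted p under 0.05. Same-numbered libraries of the 2 groups deviated from their group means with correlations of −0.20, −0.05 and −0.16 across genes. Differently numbered libraries had correlations from −0.18 to 0.32. With 3 libraries in each group, these values cannot decide whether the numbers pair the mice. With the first number of the bracketed sample name as a block, whose meaning is not given in the sources used here, 1 gene was called, Rpl3-ps1.

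Of the 77 genes with a log2 fold change in the text, 67 kept their direction under all 19 alternatives that gave a value. Many of the 77 were named for a small p or for groups without overlap in these same libraries. Such genes can hardly turn when a single library is left out. Leaving out a library of the short-repeat mice hardly touches this contrast at all. The count of 67 is therefore no independent evidence of a direction. With choroid plexus RNA as a covariate, the values turned to −0.0109 for Igf1, −0.0102 for Igfbp5, 0.38 for Ttr, 0.0291 for Folr1 and 0.14 for Kl. With the block on the first number of the name they turned to −0.00151 for Igf1, 0.34 for Ttr and 0.15 for Kl. Leaving out single libraries moved 10 genes across 0: Igf1 from −0.0191 to 0.17, Igf1r from −0.0167 to 0.16, Insr from −0.0491 to 0.13, Igf2r from −0.0326 to 0.13, Igfbp5 from −0.0130 to 0.0249, Ghr from −0.39 to 0.0826, Gh from −4.57 to 1.02, Ttr from −7.45 to 0.57, Folr1 from −5.52 to 1.48 and Kl from −4.46 to 0.21. Ttr, Folr1, Kl, Ghr and Igf1 turned without 84Q replicate 2 and Gh without 84Q replicate 1. Below 1 CPM, few intervals lay within 1.5-fold.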

Other observations

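Chaperone genes keep proteins folded. Of 12 tested, 10 were fitted higher in 84Q+IGF-1, with a median log2 fold change of 0.07, none had an unadjusted p under 0.05, and all intervals lay within 1.5-fold. This median was lowest at −0.01 under the name block, highest at 0.09 without 84Q replicate 1, with 5 of 12 higher without 84Q replicate 2 and 4 under the name block. Circadian clock genes, which can shift with the hour of harvest, had a median of 0.00 (lowest at −0.05 without 84Q+IGF-1 replicate 2, highest at 0.05 without 84Q+IGF-1 replicate 3) over 15 genes, with 14 intervals within 1.5-fold. All 9 markers of the meninges were fitted lower, with a median of −0.32 (lowest at −0.47 without 84Q replicate 3, highest at −0.06 without 84Q replicate 1, and −0.11 without 84Q+IGF-1 replicate 1) and a summed CPM of 123, 121 and 95.02 in 84Q and 87.6, 99.4 and 109 in 84Q+IGF-1. Blood genes had a median of −0.13 over 7 genes and a summed CPM of 23.6, 35.3 and 85.3 against 58.8, 39.3 and 29.3, with overlapping groups. That median was −0.50 without 84Q replicate 1, −0.45 without 84Q+IGF-1 replicate 1, −0.31 without 84Q replicate 2 and −0.69 with the choroid plexus covariate, each with all 7 lower. It was 0.52 without 84Q replicate 3 and 0.07 without 84Q+IGF-1 replicate 3, each with 5 of 7 higher. Actb, the reference gene of the study's PCR, had 935, 961 and 1044 against 928, 896 and 804 CPM, and the treated libraries lay below the untreated ones.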
